A study of Antirrhinum majus with 21 samples.

Results

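Corolla RNA of snapdragon (Antirrhinum majus) was compared between 3 plants with pale flowers and 3 plants with white flowers, which are 6 of the 21 plants of the series. The pale plants, rosrec_elpse, carried a recombinant ros allele whose upstream part came from A. m. striatum and whose downstream part came from A. m. pseudomajus, together with the recessive el allele of pseudomajus. The white plants, rosstr_ELstr, carried the recessive ros and the dominant EL of A. m. striatum. The 6 libraries were taken because their labels give these alleles, and no measured value entered the choice. Each library came from the corolla of 1 bud of 5 to 10 mm at stage 12 to 13, and all plants grew side by side outdoors. The alleles are the only genetic information in the labels, which give no zygosity and no pedigree beyond the plant numbers, whose first part is called a family here. All 3 pale plants were of family A177, which held no other genotype, and all 3 white plants of family A182. Genotype and family therefore cannot be told apart in any difference between these 2 groups. The other 15 plants, which served to estimate the spread and as a background, were ROSpse_ELstr, ROSji7_ELstr, ROSpse_elpse, ROSji7_elji7 and rosdor_eldor, with 3 plants each. Their labels give a dominant ROS allele from pseudomajus (ROSpse) or from the stock line JI7 (ROSji7), or a recessive one from the line rosea-dorsea (rosdor). At EL they give the dominant striatum allele (ELstr) or a recessive one from pseudomajus, JI7 or rosea-dorsea (elpse, elji7, eldor). The corollas were magenta with a dominant ROS and a recessive el, eluta with a dominant ROS and ELstr, and white in rosdor_eldor.

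ROSEA and ELUTA are linked flower colour loci of snapdragon. ROSEA encodes MYB transcription factors that switch on the genes of magenta anthocyanin synthesis in the petals, and ELUTA restricts where in the flower that pigment is made, with EL acting as a dominant restrictor. The yellow-flowered striatum and the magenta-flowered pseudomajus carry different alleles at both loci. The pale and white plants therefore share striatum sequence upstream at ROS and differ downstream of the break and at EL, and the comparison asks which transcripts differ with that exchange. The deposited files give gene IDs without names, so no ID below is identified as ROSEA, ELUTA or a pigment enzyme, and the corolla label was not checked against petal markers.

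Library totals were 23179393, 34811632 and 35925525 estimated reads in pale replicates 1 to 3, and 41860890, 28433136 and 41452466 in white replicates 1 to 3. Across genes, Spearman's rho between replicates was 0.947 to 0.981, and their counts differed by 31.7 to 165 times the variance expected from sampling alone, and each library was kept as a sample of its own. Pale replicate 1 carried a library number of the low series (below 3000) and pale replicates 2 and 3 of the high series (above 8000). White replicate 1 was of the high series and white replicates 2 and 3 of the middle one. On the first principal component of the series, which held 19.1% of the variance, the pale libraries lay at 88.2, -25.7 and -42.8 and the white ones at -11.7, -78.1 and 29.2, so it spread the plants of each group and did not part the groups. On the second (12.8%), all 3 white libraries lay between -57.7 and -50.1 and the pale ones between -12.7 and 16.7.

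Between pale and white corollas, 455 of 24674 tested genes were called, which is 1.84% of them (edgeR's quasi-likelihood test, Benjamini-Hochberg adjusted p under 0.05). The 225 genes higher in pale (0.912%) and the 230 lower in pale (0.932%) were close in number but not in size. Fold changes are log2 of pale over white throughout, with the standard error of the fit, and levels are TMM-scaled counts per 1e6 reads (CPM), which are not divided by gene length. In whole corollas, fewer cells of a type and less RNA per cell cannot be told apart. The genes higher in pale had a median log2 fold change of 1.07 (quartiles 0.77 and 1.89), and 96 of them changed by less than 2-fold. Those lower in pale had a median of -1.64 (quartiles -2.988 and -1.002), and 57 changed by less than 2-fold. Changes beyond 4-fold numbered 51 among the genes higher in pale and 96 among those lower. In 10 of the genes lower in pale, all 3 pale libraries were at 0, and in 0 of the genes higher in pale were all 3 white libraries at 0. The median over all tested genes was 0.00.

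**Figure D1:**
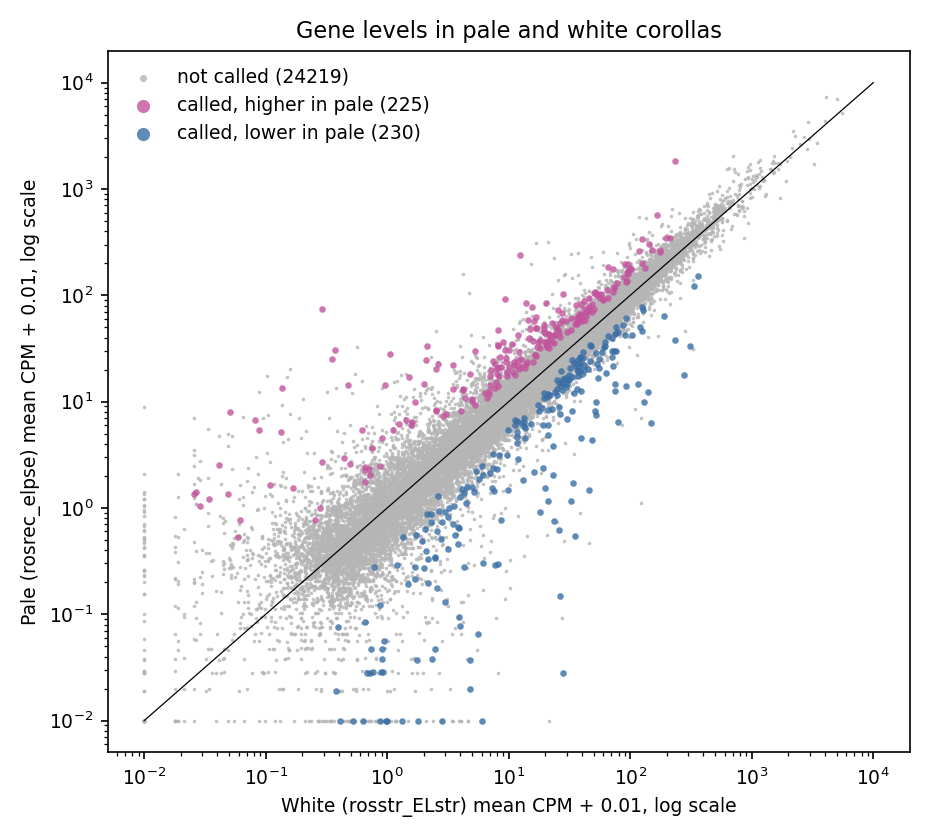
Mean level of each tested gene in pale corollas (vertical) and white corollas (horizontal), both as CPM plus 0.01 on log scales; points are genes, coloured where called. The 230 genes lower in pale reach further from the diagonal than the 225 higher in pale, and a row of them lies along the bottom edge, where the pale mean was 0.

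For 452 of the 455 called genes the pale and white libraries did not overlap, where 24.6% of all tested genes showed no overlap. The count rested on all 6 libraries: it was 166, 137 and 200 without pale replicates 1, 2 and 3, and 143 and 198 without white replicates 1 and 3, with 74 higher and 109 lower in pale without white replicate 2. With the pale libraries 2 and 3 set against white library 1, all of the high number series, 23 genes were called. White had a single library there, some named genes were not tested, and most of the called ones that were tested lost the call. Of the 37 named genes that were called, 11 lost the call with the library series as a term over all 21 libraries. In total, 78 genes kept their call whichever library was left out, 30 higher and 48 lower in pale. Reads may have been divided between overlapping gene models: 105 of the called genes overlapped another gene on the same strand and 48 on the opposite one, and this is said of the named genes it concerns.

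The ROS locus gives its name to 1 sequence of the assembly, ros_assembly. Of 125 genes placed on it, 80 were tested and 2 were called, close to the 1.84% of all genes. AnMG0000144700 (541660 to 544383, plus strand) was at 27.8, 27.9 and 18.04 CPM in pale corollas, against 2.72, 1.80 and 1.72 CPM in white ones. The lowest pale library stood well above the highest white one, at means of 24.6 ± 5.66 and 2.08 ± 0.557 CPM (SD, n = 3 each). The log2 fold change was 3.56 ± 0.77 (edgeR adjusted p 0.0291). This call was among the less firm: the adjusted p was 0.0696 and 0.0726 without pale replicates 1 and 2, and 0.0838, 0.0942 and 0.106 without white replicates 1, 2 and 3, while it was 0.0469 without pale replicate 3. It was 0.0731 with the library series as a term and 0.605 within the high series, where the fold change was 3.06.

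Further along, AnMG0000140910 (720073 to 726464, plus strand) was at 12.6, 19.1 and 20.0 CPM in pale corollas and at 33.2, 37.2 and 41.9 CPM in white ones. Pale was lower in every library, at -1.12 ± 0.18 on the log2 scale (edgeR adjusted p 0.00500), and the call held without each of the 6 libraries in turn. It did not hold in the fit of the 6 libraries alone (adjusted p 0.0725) or within the high series (0.343).

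Before AnMG0000144700, 46 genes of ros_assembly were tested and 0 were called, with a smallest adjusted p of 0.0857 and 4 at an unadjusted p under 0.05. DESeq2 called 6 genes over the whole sequence. The median size of the log2 fold change was 0.31 in that stretch, as over all tested genes (0.31), and the groups did not overlap in 11 of the 46 genes (23.9%, near the 24.6% of all genes). The files do not say which end of the sequence lies upstream at ROS. A pair of genes there had close levels in pale and white corollas while differing in some or all of the other genotypes. AnMG0005279310 (121686 to 123759) was at 33.4, 25.03 and 25.6 CPM in pale corollas and at 33.9, 31.0 and 38.7 CPM in white ones. Its means were 0 in the 4 genotypes with a dominant ROS allele and 0.0200 CPM in the recessive rosdor_eldor. AnMG0000139000 (295677 to 302251) was at 25.4, 24.9 and 26.0 CPM in pale corollas and at 20.8, 25.2 and 22.6 CPM in white ones. Its means were 66.4 CPM in ROSpse_elpse and 70.8 CPM in ROSpse_ELstr. In ROSji7_elji7, ROSji7_ELstr and rosdor_eldor they were 22.8, 24.7 and 28.9 CPM, near the pale and white levels. Neither was called between pale and white, with log2 fold changes of -0.30 ± 0.23 and 0.15 ± 0.11 (edgeR adjusted p 0.587 and 0.560). These 2 genes and AnMG0000140810 were picked from earlier results of these data.

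The stretch of 184.8 kb that the called genes bound held 13 tested genes, and 7 of them changed by more than 2-fold on the fitted scale and 7 did not overlap between the groups, where 12.9% and 24.6% of all tested genes did so. Its median size of change was 1.12, but its ends were set by the calls themselves, so this is a description. AnMG0000147400 (633578 to 634854) was at 0.164, 0.0577 and 0 CPM in pale corollas and at 6.62, 0.399 and 5.47 CPM in white ones, with an edgeR adjusted p of 0.0850. AnMG0000148700 (688183 to 688881) was at 2.03, 4.47 and 4.49 CPM in pale corollas and at 11.9, 7.95 and 21.9 CPM in white ones, with an edgeR adjusted p of 0.0624. In both, every pale library was below every white one, and neither passed the threshold. AnMG0000144900 (549901 to 567141), which overlaps 2 genes on its strand, was at 1.59, 0.375 and 0.0272 CPM in pale corollas and at 0 in all white ones, and was not called either (edgeR adjusted p 0.104).

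AnMG0000149200 (691716 to 692252) was at 0.110, 0.231 and 0.190 CPM in pale corollas and at 0.697, 0.532 and 0.449 CPM in white ones, apart in every library but at low counts (edgeR adjusted p 0.117). AnMG0000146600 (624419 to 626533) was near 0 in both groups, at 0.164, 0 and 0 CPM in pale corollas and at 0.0232, 0.0333 and 0 CPM in white ones (edgeR adjusted p 0.853). It was expressed in other genotypes, with means of 29.8 CPM in rosdor_eldor, 15.2 CPM in ROSji7_ELstr and 6.05 CPM in ROSji7_elji7, and of at most 0.197 CPM in the ROSpse genotypes. Pale, white and both ROSpse genotypes thus shared a level near 0 in this gene.

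AnMG0000140810 (714682 to 716427), just before the called AnMG0000140910, was at 6.03, 4.21 and 3.56 CPM in pale corollas and at 14.0, 13.1 and 10.8 CPM in white ones. The log2 fold change of -1.46 ± 0.56 was not called (edgeR adjusted p 0.183). In the other genotypes its mean was 18.1 and 16.4 CPM in the ELstr plants ROSpse_ELstr and ROSji7_ELstr, and 4.55, 4.36 and 1.21 CPM in ROSpse_elpse, ROSji7_elji7 and rosdor_eldor. Beyond AnMG0000140910, 21 further genes were tested over 188.3 kb, of which 0 were called and 1 had an unadjusted p under 0.05. Their median size of change was 0.12, and none exceeded 2-fold.

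**Figure D2:**
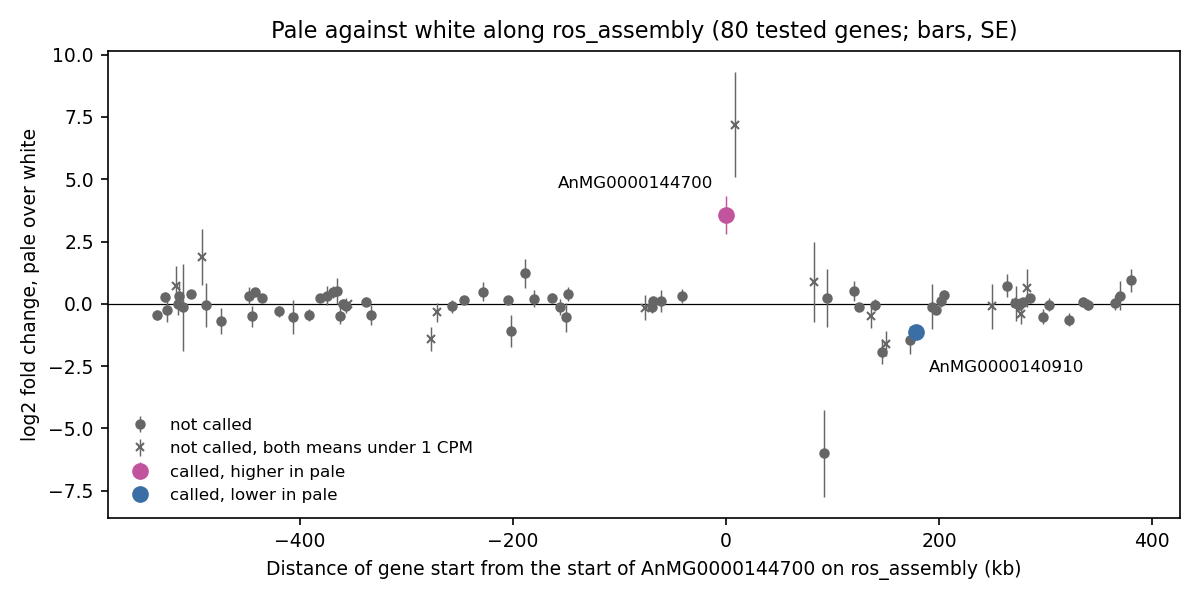
Log2 fold change of pale over white (points, with the standard error as bars) for the 80 tested genes of ros_assembly, by distance in kb from the start of AnMG0000144700. The genes before it scatter around 0, the largest changes lie in the stretch between the called genes, and the last 21 genes return to near 0; the value of 7.19 beside AnMG0000144700 belongs to AnMG0000144900, whose white libraries were all at 0, and is not a measured fold.

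A second sequence, scaffold1195, held 10 called genes among 118 tested (8.47%), 5 higher and 5 lower in pale. The strongest difference of the whole comparison by p was AnMG0001020400 (1110942 to 1113090, minus strand), at 0.164, 0.173 and 0.0816 CPM in pale corollas and at 39.5, 24.9 and 14.0 CPM in white ones. The highest pale library lay far below the lowest white one, at -7.55 ± 0.70 on the log2 scale (edgeR adjusted p 0.000136). Its neighbour AnMG0001020200 (1109323 to 1110176) was at 0 in all 3 pale libraries and at 3.65, 3.69 and 1.162 CPM in white ones. Against a floor of 3 counts over the pale libraries it was at least 84.1-fold lower in pale (edgeR adjusted p 0.00758). Each of these genes overlaps another gene on the same strand, so reads could have been shared between overlapping models.

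At the other end of the same sequence, AnMG0000146610 (208979 to 211732) was at 0.0548, 0.317 and 0.462 CPM in pale corollas and at 10.4, 7.05 and 5.81 CPM in white ones (log2 fold change -4.70 ± 0.56, edgeR adjusted p 0.00113). Beside it, AnMG0000146410 (203169 to 205841) was at 0, 0.0288 and 0.0816 CPM in pale corollas and at 0.767, 0.566 and 0.845 CPM in white ones (edgeR adjusted p 0.0232). In both, no pale library reached the level of any white library. The fifth gene lower in pale, AnMG0000896310 (883896 to 889668), was at 0, 0.0288 and 0 CPM in pale corollas and at 7.65, 5.85 and 0.739 CPM in white ones. White replicate 3 was far below the other white libraries but still above every pale one. The ratio of 431 (95% counting interval 77.0 to 17048) rested on 1 pale count and had an edgeR adjusted p of 0.000661.

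Of these 5 genes, 4 followed the EL label across all 7 genotypes. Over all tested genes, 6 had a mean in each of the 3 ELstr genotypes at least 4-fold above the mean of each other genotype (0.01 CPM added to every mean), a rule chosen after the values were seen. All 6 were among the genes called lower in pale, and they comprised AnMG0001020400, AnMG0001020200, AnMG0000146610 and AnMG0000146410 on scaffold1195, AnMG0001841800 on scaffold14 and AnMG0001842000 on scaffold713. AnMG0001020400 averaged 27.9 CPM in ROSpse_ELstr and 37.5 CPM in ROSji7_ELstr, and 2.55, 0.116 and 0.469 CPM in ROSpse_elpse, ROSji7_elji7 and rosdor_eldor. The rule used the means of all 7 genotypes, so these levels describe the choice. The reverse rule, each ELstr genotype at least 4-fold below every other, held for 3 tested genes, of which edgeR called 0 and DESeq2 called 1, with 2 at an unadjusted edgeR p under 0.05.

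AnMG0001841800 (scaffold14, 225526 to 226574) was at 0.0548, 0.0577 and 0.0544 CPM in pale corollas and at 4.11, 9.98 and 2.54 CPM in white ones (log2 fold change -6.53 ± 0.74, edgeR adjusted p 0.000553). AnMG0001842000 (scaffold713, 580408 to 581636) was at 0.0548, 0.750 and 1.03 CPM in pale corollas and at 25.5, 34.8 and 16.8 CPM in white ones (log2 fold change -5.29 ± 0.66, edgeR adjusted p 0.00109). The groups lay far apart in both genes, each of which overlaps another gene on its strand. AnMG0000896310 failed the 4-fold rule because its mean in ROSpse_elpse was 3.62 CPM, beside 5.75 and 5.93 CPM in ROSpse_ELstr and ROSji7_ELstr.

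The genes of scaffold1195 that were higher in pale followed another order. AnMG0000159200 (273970 to 274999) was at 4.99, 4.15 and 7.05 CPM in pale corollas and at 0.209, 0 and 0.0264 CPM in white ones (log2 fold change 5.93 ± 0.999, edgeR adjusted p 0.00945). AnMG0000148810 (277562 to 278759) was at 1.15, 2.16 and 4.19 CPM in pale corollas and at 0.0930, 0 and 0 CPM in white ones (log2 fold change 6.03 ± 1.03, edgeR adjusted p 0.0134). Outside pale, both were well detected in ROSji7_elji7 alone, at 4.74 and 1.54 CPM, with means of at most 0.0313 CPM in each of the remaining 4 genotypes beside white.

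AnMG0001002600 (485067 to 487089) was at 50.2, 94.9 and 88.7 CPM in pale corollas and at 14.5, 10.6 and 21.6 CPM in white ones (log2 fold change 2.32 ± 0.33, edgeR adjusted p 0.00257). It overlaps another gene on its strand. It too averaged highest outside pale in ROSji7_elji7, at 81.1 CPM, and was at 4.205 CPM in ROSpse_elpse, which carries the same el label as pale. AnMG0000902610 (1128135 to 1130760) was at 30.5, 22.9 and 13.7 CPM in pale corollas and at 3.07, 1.86 and 2.88 CPM in white ones (log2 fold change 3.10 ± 0.50, edgeR adjusted p 0.00594). The last, AnMG0001004600 (570613 to 574161), averaged 89.2 ± 12.0 CPM in pale corollas and 41.8 ± 8.78 CPM in white ones (SD, n = 3 each; edgeR adjusted p 0.0230) and kept its call in 2 of the 6 fits that left out a library. Of the 10 called genes of scaffold1195, all but AnMG0001004600 and AnMG0000146410 kept the call in all 6.

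**Figure D3:**
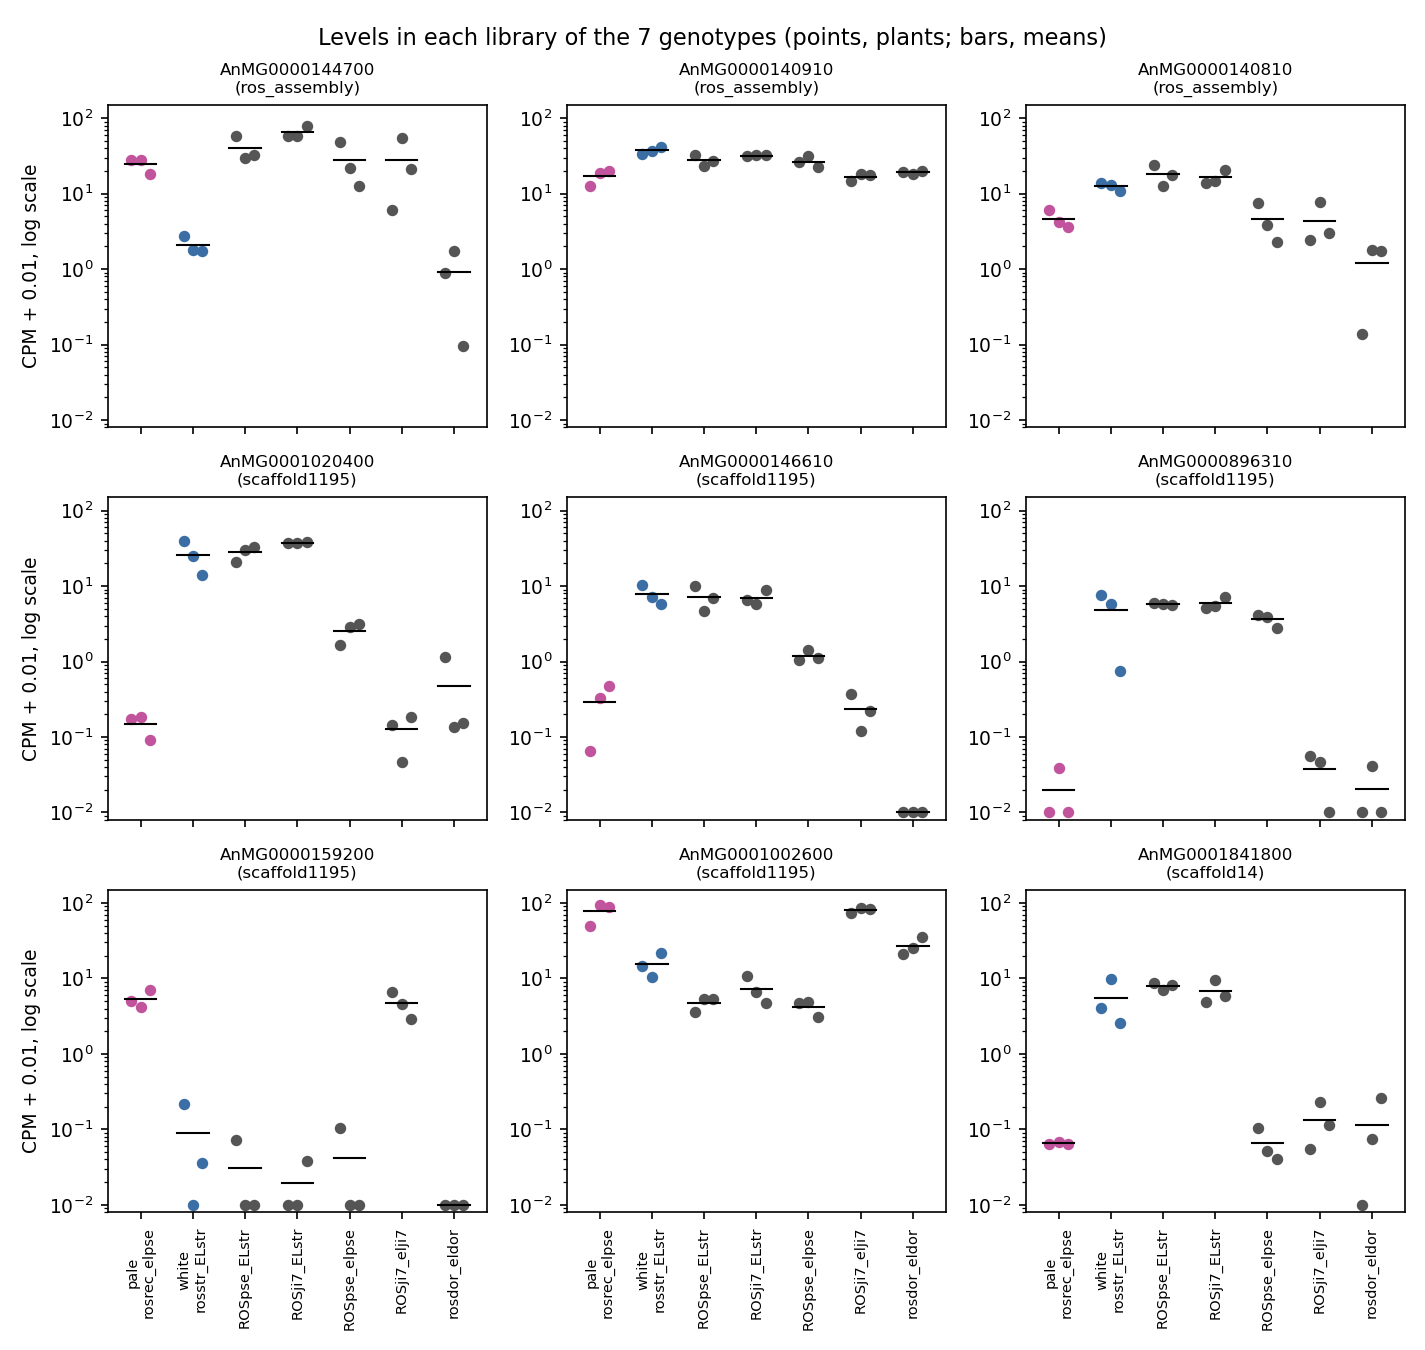
CPM plus 0.01 (log scale) of 9 genes in every library of the 7 genotypes; points are plants and bars are means. Pale sits level with ROSji7_elji7 and far from white in AnMG0001020400, AnMG0000159200 and AnMG0001002600, white sits with the other ELstr genotypes in AnMG0001020400, AnMG0000146610 and AnMG0001841800, and in AnMG0000144700 pale sits with the 4 genotypes of a dominant ROS label and white with rosdor_eldor.

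Genes were also read against the ROS label, by a rule chosen after the values were seen. In 6 tested genes, the means in pale and in the 4 dominant ROS genotypes were all at least 4-fold above both white genotypes. Of these 6, edgeR called 2, AnMG0000144700 and AnMG0008107300. DESeq2 called 5 of the 6, and 5 were at an unadjusted edgeR p under 0.05. AnMG0008107300 (scaffold1533, 330318 to 332780) had the largest rise of all named genes, at 97.6, 80.7 and 45.5 CPM in pale corollas and at 0.442, 0 and 0.396 CPM in white ones. Its log2 fold change was 7.96 ± 1.73 (edgeR adjusted p 0.0295), and the call was kept in 1 of the 6 fits that left out a library, the one without pale replicate 3 (0.0479); in the others the adjusted p was 0.0630 to 0.102. It was also lost with the library series as a term (0.0535) and within the high series (0.584). In rosdor_eldor, the other white genotype, it was at 0 in replicates 1 and 3 and at 21.6 CPM in replicate 2. The gene overlaps another on the opposite strand. The reverse pattern, with both white genotypes above all others, held in 16 tested genes, of which edgeR called 3 (AnMG0001275100, AnMG0004376710 and AnMG0607978800). DESeq2 called 5 of the 16, and 15 were at an unadjusted edgeR p under 0.05. In these 3 called genes, the rosdor_eldor mean rested on replicate 3, the plant of family A182, at 4.86, 0.792 and 1.19 CPM. Replicates 1 and 2 of rosdor_eldor were at most 0.126 CPM in each.

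The other large rises were mostly of genes near 0 in white corollas. AnMG0207956200 (scaffold663, 217406 to 221243) was at 22.9, 22.0 and 46.7 CPM in pale corollas and at 1.05, 0.0333 and 0 CPM in white ones (log2 fold change 6.31 ± 1.37, edgeR adjusted p 0.0295). AnMG0001637400 (scaffold1096, 45411 to 49998) was at 8.77, 33.2 and 33.0 CPM in pale corollas and at 0.628, 0.166 and 0.238 CPM in white ones (log2 fold change 6.13 ± 1.24, edgeR adjusted p 0.0201). AnMG0001637400 overlaps 3 genes on its strand. Both AnMG0207956200 and AnMG0001637400 were also low in ROSpse_ELstr, with means of 0.0243 and 0.850 CPM, and at 42.0 and 48.9 CPM in ROSji7_ELstr.

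AnMG0001715900 (scaffold751, 305766 to 309569) was at 9.97, 5.77 and 4.35 CPM in pale corollas and at 0.116, 0.0998 and 0 CPM in white ones (edgeR adjusted p 0.0227). AnMG0004750100 (scaffold455, 382790 to 384572) was at 11.9, 10.9 and 0.871 CPM in pale corollas and at 0.0697, 0 and 0.0528 CPM in white ones (edgeR adjusted p 0.0304). AnMG0607472700 (scaffold344, 288286 to 292944) was at 24.4, 15.9 and 0.299 CPM in pale corollas and at 0.0930, 0.233 and 0.0528 CPM in white ones (edgeR adjusted p 0.0146). In these last 2 genes, pale replicate 3 was far below the other pale plants, and no other genotype averaged above 0.368 CPM.

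AnMG0005264210 (scaffold593, 458888 to 459967) was at 1.64, 1.38 and 1.17 CPM in pale corollas and at 0.0232, 0 and 0.0264 CPM in white ones, a ratio of 74.8 (95% counting interval 20.3 to 625). AnMG0000450800 (scaffold343, 97685 to 99467) was at 1.04, 1.01 and 1.93 CPM in pale corollas and at 0.0465, 0 and 0 CPM in white ones, a ratio of 77.3 (interval 21.0 to 646). Their edgeR adjusted p values were 0.0388 and 0.0354, and neither call survived the loss of any library. Of the 10 largest rises, the calls on AnMG0000148810 and AnMG0000159200 alone held in all 6 such fits. With the library series as a term, the edgeR adjusted p was 0.0906 for AnMG0004750100, 0.0600 for AnMG0001715900 and 0.0510 for AnMG0001637400, and 0.0917 and 0.0831 for AnMG0005264210 and AnMG0000450800, so these calls ended there too.

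Among the largest falls, AnMG0001275100 (scaffold363, 38268 to 41770) was at 0 in all pale libraries and at 7.16, 7.68 and 3.06 CPM in white ones, at least 176-fold lower in pale (edgeR adjusted p 0.0405). Its level in rosdor_eldor was 0, 0 and 4.86 CPM in replicates 1, 2 and 3, and replicate 3 is the plant of the white plants' family A182. AnMG0007687000 (scaffold268, 202818 to 203625) was at 0 in all pale libraries and at 0.930, 2.73 and 1.69 CPM in white ones, at least 50.1-fold lower in pale (edgeR adjusted p 0.0292). Neither call held without any 1 of the 6 libraries, although every white library lay above every pale one. Both were lost with the library series as a term as well (edgeR adjusted p 0.0837 for AnMG0001275100 and 0.0716 for AnMG0007687000).

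AnMG0004376710 (scaffold121, 217949 to 221634) was at 0 in all pale libraries and at 1.91, 1.20 and 0.819 CPM in white ones, at least 40.1-fold lower in pale (edgeR adjusted p 0.0294). AnMG0607978800 (scaffold507, 77397 to 78232) was at 0.0548, 0.0288 and 0 CPM in pale corollas and at 3.39, 2.49 and 1.14 CPM in white ones, a ratio of 107 (95% counting interval 29.2 to 886; edgeR adjusted p 0.0208). AnMG0004376710 overlaps 4 genes on its strand. Both AnMG0004376710 and AnMG0607978800 were near 0 in rosdor_eldor replicates 1 and 2 and higher in its family A182 plant, at 0.792 and 1.19 CPM. AnMG0307166000 (scaffold1367, 97620 to 99585) was at 0, 0 and 0.0816 CPM in pale corollas and at 9.76, 1.90 and 2.64 CPM in white ones, a ratio of 155 (interval 52.9 to 756; edgeR adjusted p 0.04998, just under the threshold). The calls on AnMG0004376710, AnMG0607978800 and AnMG0307166000 held in 1, 2 and 0 of the 6 fits that left out a library, and that on AnMG0004376710 ended with the library series as a term (0.0505).

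AnMG0005041500 (scaffold451, 579108 to 581313) was at 0.767, 0.346 and 0.490 CPM in pale corollas and at 19.2, 31.8 and 53.5 CPM in white ones (log2 fold change -6.08 ± 1.12, edgeR adjusted p 0.0117). The call ended without pale replicates 2 and 3 (0.0649 and 0.0559). This gene varied widely over the series, with means of 383.4 CPM in ROSpse_elpse, 84.0 CPM in rosdor_eldor and 3.32 CPM in ROSji7_ELstr, and pale was below every other genotype.

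By CPM, the called gene with the highest level was AnMG0006051800 (scaffold1376, 667814 to 669004), at 1516, 1937 and 2076 CPM in pale corollas and at 311.3, 154.1 and 233.6 CPM in white ones. Every pale library was above every white one, at 2.98 ± 0.53 on the log2 scale (edgeR adjusted p 0.00994), and the call ended without white replicate 2 (0.0511) and within the high library series (0.437). Per length, its mean was 3291 TPM in pale corollas and 444.0 TPM in white ones. ROSpse_ELstr and ROSji7_ELstr averaged 2474 and 1844 CPM and ROSpse_elpse 342.0 CPM, so its order over the genotypes followed neither label.

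AnMG0005959100 (scaffold449, 1162508 to 1163470) was at 321.8, 689.6 and 698.9 CPM in pale corollas and at 241.3, 139.5 and 120.4 CPM in white ones (log2 fold change 1.77 ± 0.39, edgeR adjusted p 0.0313). AnMG0001519300 (scaffold121, 89026 to 91395) was at 438.3, 303.6 and 294.0 CPM in pale corollas and at 198.8, 194.2 and 240.1 CPM in white ones (log2 fold change 0.71 ± 0.18, edgeR adjusted p 0.0497). The call on AnMG0001519300 ended in all 6 fits that left out a library, and that on AnMG0005959100 in 4 of them.

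Of the abundant genes lower in pale, AnMG0002758800 (scaffold897, 322351 to 324668) was at 20.4, 35.9 and 44.7 CPM in pale corollas and at 175.8, 378.4 and 368.6 CPM in white ones (log2 fold change -3.19 ± 0.58, edgeR adjusted p 0.0112). AnMG0006338100 (scaffold322, 418403 to 422165) was at 134.9, 118.7 and 116.2 CPM in pale corollas and at 294.9, 343.5 and 370.7 CPM in white ones (log2 fold change -1.45 ± 0.32, edgeR adjusted p 0.0295). AnMG0001282900 (scaffold1175, 148756 to 152639) was at 125.1, 164.5 and 161.5 CPM in pale corollas and at 259.8, 436.6 and 385.6 CPM in white ones (log2 fold change -1.26 ± 0.20, edgeR adjusted p 0.00500). White replicate 1 was the lowest white library in each of the 3 genes, and the groups stayed apart. The call held without each single library for AnMG0001282900, ended without pale replicates 1 and 2 for AnMG0002758800, and ended in all 6 such fits for AnMG0006338100, as it did with the library series as a term (0.0757).

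Genes that passed under all 12 alternative fits, including the high library series alone, were 9 in number, a set chosen after the values were seen. They were 1 gene higher in pale and 8 lower. The gene higher in pale was AnMG0001333100 (scaffold807, 204683 to 207803), at 39.5, 46.3 and 47.4 CPM in pale corollas and at 16.8, 18.8 and 23.8 CPM in white ones (log2 fold change 1.17 ± 0.16, edgeR adjusted p 0.00209). Of those lower in pale, 5 were AnMG0001020400, AnMG0000146610, AnMG0000896310, AnMG0001841800 and AnMG0001842000.

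Like AnMG0000896310, the other 3 were not among the genes picked above for following the EL label. AnMG0006413900 (scaffold869, 54575 to 57040) was at 12.4, 11.4 and 12.7 CPM in pale corollas and at 120.6, 128.2 and 170.5 CPM in white ones (log2 fold change -3.52 ± 0.39, edgeR adjusted p 0.000553). AnMG0207955100 (scaffold663, 200694 to 204327) was at 0.329, 0.634 and 0.381 CPM in pale corollas and at 4.56, 3.43 and 3.43 CPM in white ones (log2 fold change -3.06 ± 0.34, edgeR adjusted p 0.000553). AnMG0005857200 (scaffold593, 263168 to 263816) was at 0.164, 0.144 and 0.245 CPM in pale corollas and at 1.23, 1.164 and 2.01 CPM in white ones (log2 fold change -2.95 ± 0.35, edgeR adjusted p 0.000661). In all 3, pale was the lowest of the 7 genotypes, with means in the other genotypes of at least 37.3, 0.771 and 1.42 CPM.

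Called genes were counted on each sequence of the assembly, which carry no chromosome names, and whether they gather was not tested. Of 675 sequences with at least 10 tested genes, 451 held none, and 15 held at least 5. The most were on scaffold121 (19 of 261 tested genes, 7.28%, with 14 higher in pale), scaffold807 (19.3%) and scaffold751 (3.15%), beside 1.84% of all tested genes. Of the genes called on scaffold121, AnMG0006872600 (425008 to 429625) was at 31.3, 36.0 and 34.0 CPM in pale corollas and at 5.32, 7.58 and 11.4 CPM in white ones (log2 fold change 2.06 ± 0.32, edgeR adjusted p 0.00449). AnMG0108365000 (1586161 to 1590571) averaged 48.6 ± 1.59 CPM in pale corollas and 25.2 ± 0.954 CPM in white ones, and AnMG0004215200 (2252683 to 2258689) 47.0 ± 5.85 and 25.3 ± 3.61 CPM (SD, n = 3 each; edgeR adjusted p 0.00209 and 0.00349), and both overlap other genes on their strand. White was outside the range of the other 5 genotype means for 16 of these 19 genes, and pale for 15. These counts include the genes where both were outside. Over all tested genes, white alone was outside in 13.6%, pale alone in 26.8% and both in 21.1%. Over all called genes these shares were 9.23%, 49.0% and 34.5%.

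On scaffold807, 11 of 57 tested genes were called, 10 of them higher in pale. A pair of these IDs, AnMG0001503500 and AnMG0001501300, share a position and have the same counts, so the calls rest on 10 different genes. AnMG0001196610 (323364 to 327068) was at 35.9, 32.2 and 32.3 CPM in pale corollas and at 7.76, 6.69 and 9.80 CPM in white ones (log2 fold change 2.05 ± 0.23, edgeR adjusted p 0.000553), with 1 overlapping gene on its strand. AnMG0001328000 (377398 to 382071) was at 22.5, 24.1 and 24.6 CPM in pale corollas and at 13.2, 14.0 and 15.0 CPM in white ones (log2 fold change 0.75 ± 0.12, edgeR adjusted p 0.00626). The exception, AnMG0001324100 (481883 to 488324), which overlaps 1 gene on the opposite strand, was at 9.59, 14.2 and 14.2 CPM in pale corollas and at 41.2, 50.4 and 26.3 CPM in white ones (log2 fold change -1.63 ± 0.28, edgeR adjusted p 0.00805). It was chosen after its values were seen. White stood outside the other 5 genotype means in all 11 genes, and pale in 9 of them. Over all genes called higher in pale, white alone was outside in 13.3%, pale alone in 33.3% and both in 47.1%. Over all tested genes of the sequence, 78.9% had a fold change above 0, with a median of 0.53, where 50.2% of all tested genes did.

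Scaffold1155 and scaffold1387 leaned the other way, with 8 of 61 and 6 of 30 tested genes called, all lower in pale. Their medians over all tested genes were -0.40 and -0.41, and 23.0% and 16.7% of the genes were above 0. AnMG0005820200 (scaffold1155, 383870 to 386287) was at 23.0, 17.5 and 14.7 CPM in pale corollas and at 64.0, 66.2 and 60.4 CPM in white ones (log2 fold change -1.79 ± 0.27, edgeR adjusted p 0.00365). AnMG0005824600 (scaffold1155, 231067 to 231660) was at 0.384, 0.779 and 0.354 CPM in pale corollas and at 2.46, 2.96 and 2.83 CPM in white ones (log2 fold change -2.42 ± 0.33, edgeR adjusted p 0.00209). AnMG0005825900 (scaffold1155, 211379 to 211638) was at 0 in all pale libraries and at 0.837, 1.13 and 0.634 CPM in white ones, at least 25.3-fold lower in pale (edgeR adjusted p 0.00214). AnMG0005232710 (scaffold1387, 81958 to 82431) was at 1.48, 1.56 and 1.66 CPM in pale corollas and at 6.09, 4.46 and 4.28 CPM in white ones (log2 fold change -1.65 ± 0.29, edgeR adjusted p 0.00945). No white library came near the pale level in these 2 genes. AnMG0005824600 and AnMG0005825900 each overlap 1 gene on their strand. Pale stood outside the other 5 genotype means in 7 of the 8 genes of scaffold1155 and 5 of the 6 of scaffold1387. White did so in 2 genes on each sequence. Over all genes called lower in pale, pale alone was outside in 64.3%, white alone in 5.22% and both in 22.2%. The exceptions for pale were AnMG0005825900, at 0 in every rosdor_eldor library, and AnMG0005232710, at means of 1.36 CPM in rosdor_eldor and 1.57 CPM in pale. These sequences and the genes named on them were picked after their values were seen. Another sequence, scaffold451, also had all its calls lower in pale, 5 among 58 tested genes. Its median over all tested genes was -0.02, and 48.3% of them were above 0.

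On scaffold751 the 11 calls among 349 tested genes were split, 6 higher and 5 lower in pale. AnMG0001710700 (213102 to 216167) was at 1.92, 1.79 and 2.37 CPM in pale corollas and at 15.4, 19.7 and 34.3 CPM in white ones (log2 fold change -3.51 ± 0.54, edgeR adjusted p 0.00397). AnMG0001768100 (1501878 to 1506889) averaged 33.5 ± 2.15 CPM in pale corollas and 62.2 ± 4.48 CPM in white ones, and AnMG0001596010 (1126860 to 1131192) 42.2 ± 1.95 and 103.9 ± 9.40 CPM (SD, n = 3 each; edgeR adjusted p 0.0134 and 0.0180). The calls on AnMG0001768100 and AnMG0001596010 held in 3 and 2 of the 6 fits that left out a library. AnMG0001768100 overlaps 1 gene on its strand. All 3 genes were at their highest mean in ROSpse_elpse.

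**Figure D4:**
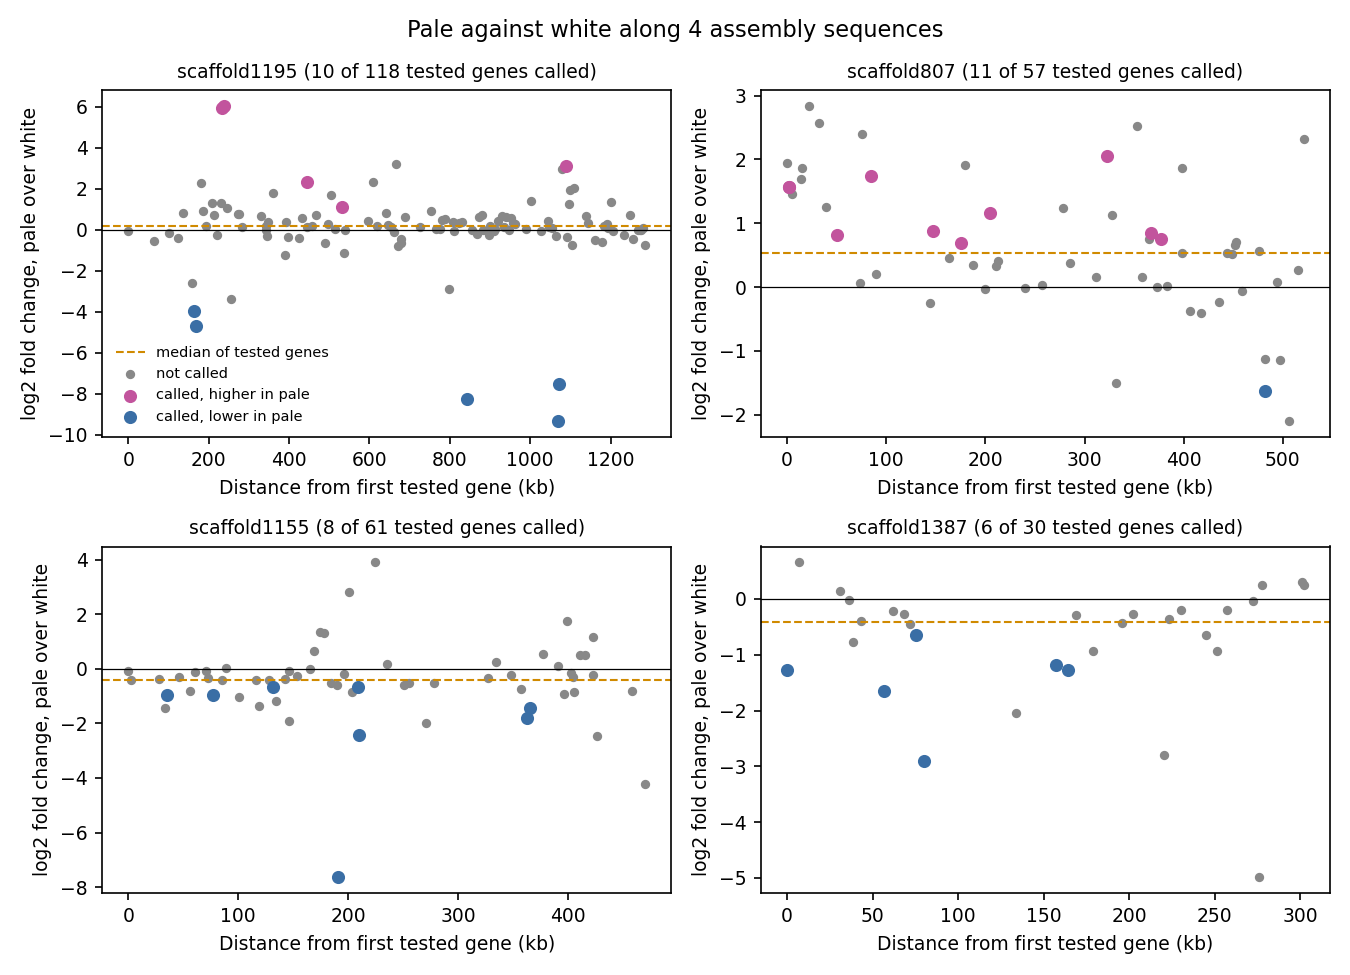
Log2 fold change of pale over white for each tested gene (points, coloured where called) of 4 assembly sequences, by distance in kb from the first tested gene; the dashed line is the median of the tested genes. Scaffold1195 has large changes in both directions around a median of 0.16, while most genes of scaffold807 lie above 0 and most of scaffold1155 and scaffold1387 below it, called or not.

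Transcript usage within genes was compared for 6925 genes with more than 1 kept transcript. The edgeR test called 44 of them (0.635%) and the limma test 13 (0.188%), with 9 shared. The edgeR test also called too many unchanged genes on simulated counts, which had a single fixed dispersion, unlike the data. Of the 44, 3 were also called for their total. In AnMG0508951400 (scaffold496, 246354 to 257673), transcript T06 made up 88.8%, 97.8% and 100% of the estimated reads in pale corollas, against 0%, 1.68% and 14.2% in white ones. Its transcript T01 had 0, 0 and 0 estimated reads in pale corollas and 1685, 720 and 751 in white ones. The gene's total fell as well, to a mean of 12.5 CPM in pale corollas, against 74.7 CPM in white ones (log2 fold change -2.57 ± 0.43, edgeR adjusted p 0.00645), and the usage test gave adjusted p values of 2.80e-07 by edgeR and 0.0261 by limma. T06 averaged at most 10.5% in the other 5 genotypes.

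In AnMG0001333600 (scaffold807, 187320 to 198677), transcript T02 made up 22.7%, 13.1% and 11.2% in pale corollas and 0.880%, 1.57% and 0% in white ones, with usage p values of 0.000413 by edgeR and 0.000698 by limma, both adjusted. The gene's total was not called (edgeR adjusted p 0.176). Over the other genotypes, its T02 averaged 11.0% in ROSpse_elpse and 4.75% to 7.95% elsewhere. In AnMG0005825000 (scaffold1155, 224586 to 228954), transcript T02 was at 0% in each pale library and at 9.00%, 6.39% and 6.397% in white ones. Here the edgeR test passed (adjusted p 0.000589) while limma's did not (0.0502). Over the other genotypes, T02 of this gene averaged 0% in rosdor_eldor, as in pale, and 4.14% to 5.86% elsewhere. Salmon divides reads that fit several transcripts, so these shares are estimates.

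The other 5 genotypes show on which side the called genes stood out. Pale alone lay outside the range of their means in 49.0% of the called genes (26.8% of all tested genes), white alone in 9.23% (13.6%), and both in 34.5% (21.1%). Among genes lower in pale, pale alone was outside in 64.3%, and among genes higher in pale in 33.3%, where both were outside in 47.1%. Each library of these genotypes was then placed nearer to the pale or to the white mean of log2(CPM + 1), gene by gene. The rosdor_eldor replicate 3 plant, of the white plants' family A182 but without striatum alleles by label, was nearer to white in 421 of the 455 called genes (92.5%). Its companions of the same genotype from families A181 and A174 were nearer to white in 66.2% and 60.4%, and the remaining 12 libraries in 50.1% to 74.3%.

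Over all tested genes the same A182 plant was nearer to white in 74.5% and the other 14 libraries in 49.4% to 62.1%. The plant also belongs to the middle library series, as do white replicates 2 and 3, and the part of family or series in the called differences was not tested. On scaffold1195, rosdor_eldor replicate 3 was nearer to white in 4 of the 10 called genes. In the 6 genes picked for following the EL label, where the rule itself used the rosdor_eldor mean, its levels were 0.141 CPM for AnMG0001020400, 0 for AnMG0000146610 and AnMG0001020200, 0.0283 CPM for AnMG0000146410, 0.254 CPM for AnMG0001841800 and 1.98 CPM for AnMG0001842000. In AnMG0000144700 that plant was at 0.0848 CPM, below every white and every pale library.

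**Figure D5:**
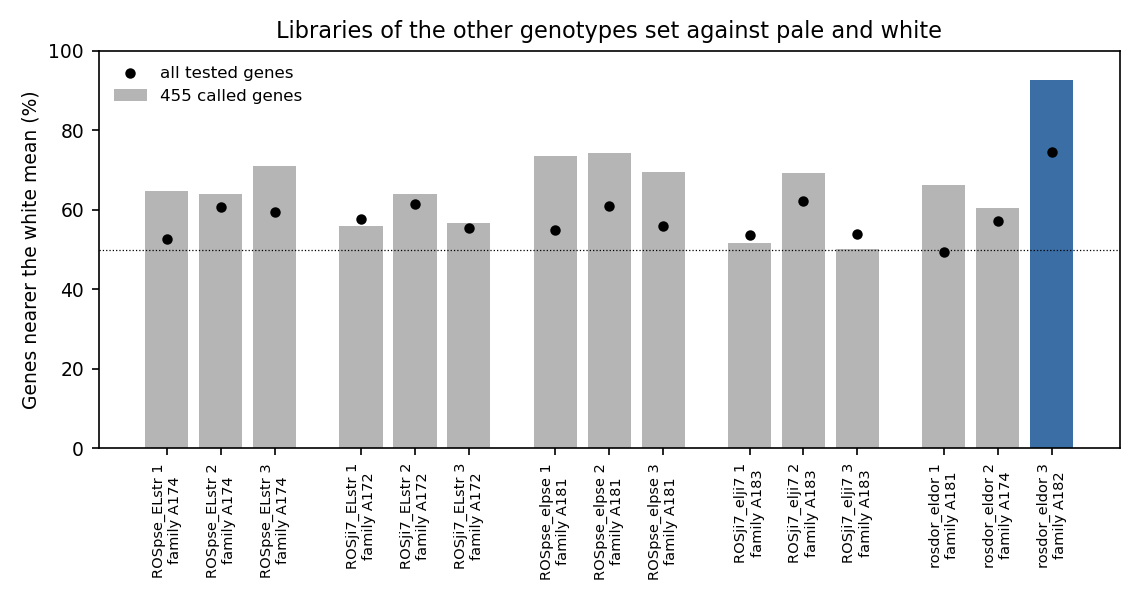
Share of the 455 called genes (bars) and of all tested genes (points) in which each library of the other 5 genotypes was nearer to the white than to the pale mean; the dotted line marks 50% and the blue bar the library of family A182. That library stands at 92.5% of called genes and 74.5% of all tested genes, above the other 14 on both counts.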

How the data were processed

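Corolla RNA from 1 plant per library was sequenced as 50 bp single-end TruSeq reads, per the labels' protocols. The submitters' processing notes name Salmon 0.9.1, cutadapt 1.16 and DESeq2; their settings are not given in the sources used here. The authors deposited per transcript a Salmon estimated count (expected count, not normalised) and TPM, per the file headers; TPM was printed only where named. A deposited placement file puts transcripts on an assembly named JICv1 and gives the authors' alignment score, used only to choose 1 placement per gene. It gives spans without exons or UTRs, and whether counting used strand is not given in the sources used here. Coordinates are 1-based.

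Transcripts were summed to 37234 genes by ID and rounded. The main test was edgeR 4.0.16 (R 4.3.3, limma 3.58.1), with TMM, 1 mean per genotype over all 21 libraries, genes of at least 0.5 CPM in at least 3 libraries, and Benjamini-Hochberg adjustment over all 24674, called under 0.05. A standard error is the log2 fold change, without its sign, over the root of its F value. The common dispersion gave a coefficient of variation between plants of 0.400. The labels do not say more of the replicates than that each is a plant. The p-values measure the spread between plants within genotypes, over all 21 libraries. Pale and white plants were each of 1 family, so spread between families was not measured in these groups. Where a group was at 0, folds are bounds against 3 counts over the group; with 1 to 3 counts they are ratios with a 95% interval, and both cover counting error only. For the gene test, counts were simulated for all 21 libraries from their gene means and fitted dispersions. Known differences were put into the pale ones. The edgeR fit found 16.2% of the 99 genes given a 2-fold difference and 54.5% of the 99 given a 4-fold one. It made 2 false calls over 24345 genes. For the usage test, transcript counts were drawn independently with a single fixed dispersion, and no reads were shared between transcripts. There, edgeR called 94 unchanged genes and limma 12, over 6674 genes. That setting differs from the data, so these counts need not hold for it.

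Genes named were the 10 largest rises and falls among called genes whose groups did not overlap and whose higher mean reached 1 CPM, the 3 most abundant calls in each direction, all calls on ros_assembly, the 3 smallest p values on the 3 other sequences with most calls, the 3 smallest isoform usage p values, and IDs from earlier results. The remaining genes in the text (uncalled ones in the interval on ros_assembly, further ones on scaffold1195, scaffold1155, scaffold14, scaffold713 and scaffold1387, and those passing all alternatives) were picked after their values were seen. The comparison, genes and lists were chosen with earlier results of these data known. Pigment pathway and marker lists could not be matched to the IDs and were not run. Alternatives were DESeq2 1.42.0, its size factors, no filter, the 6 libraries alone, the library series as a term, the high series alone, leaving out genes with several placements, and each replicate left out; limma's usage test was added after the data were seen.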

Additional observations from a re-analysis of the deposited data

How the results depend on the processing

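DESeq2 called 1592 genes (862 higher and 730 lower in pale), which included all 455; no filter gave 271 (123 and 148), the 6 libraries alone 218 (104 and 114) and the high library series alone 23 (13 and 10). Leaving out 1 library gave 137 to 200 calls, 53 to 106 higher and 66 to 109 lower in pale. DESeq2's size factors gave 453 calls, 444 of them among the 455; the series as a term gave 326, of which 237 were among the 455. Most called genes do not overlap between the groups and the settings share the 6 libraries, so their directions are no sign of stability. On ros_assembly DESeq2 called 6 genes, the 6 libraries alone 1, the high series 0 and the leave-outs 1 to 2; on scaffold1195 the counts were 24, 6, 4 and 8 to 13. Leaving out genes with several placements changed neither count. Isoform usage gave 27 calls with the series as a term, 13 by limma and 16 to 61 in the leave-outs. Of 37 named genes that were called, 15 held in all 6 leave-outs; those that lost the call numbered 16, 20 and 14 without pale replicates 1, 2 and 3, and 16 without each white replicate. Of the named values, AnMG0000146600 alone changed sign (log2 fold change 0.87, edgeR adjusted p 0.853), to -2.66 in the high series and, over the leave-outs, between -2.39 (without pale replicate 1) and 1.57, at means of 0.0548 CPM in pale and 0.0188 CPM in white corollas. No paired analysis was possible because the labels give the 2 groups no shared replicate numbers. With a coefficient of variation of 0.400 and 3 plants a group, 2-fold changes were mostly not detectable.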
